A study of Homo sapiens with 11 samples.

Results

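miR-21 is a single-hairpin miRNA with a mature product from each arm, hsa-miR-21-5p and hsa-miR-21-3p, and these 2 rows of the 2576 miRNAs in the deposited tables are described here in all 11 libraries. They were chosen by name, with the opposite responses of hsa-miR-21-5p in the 2 experiments already known, so their levels, fold changes and arm ratio are given as a description and without a test. The cells were SH-SY5Y, a human neuroblastoma line subcloned from SK-N-SH that becomes neuron-like in all-trans retinoic acid (ATRA), and by the study's account such cultures still hold some epithelial-like cells. In co-treatment, 3 libraries came from cells given ATRA for 7 days together with 10 µM hydrogen peroxide (H2O2), while the 3 control libraries came from cells given ATRA alone. In pre-treatment, 3 libraries came from cells exposed to 10 µM H2O2 for 3 days (72 h) and, after its removal, to ATRA for 7 days, and 2 control libraries from cells given ATRA without H2O2. Every group was thus differentiated for 7 days with ATRA. The study describes biological triplicates, of which 1 sample was left out by its authors as an outlier. Library totals ranged from 5343953 to 8927582 counts.

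Most miRNA hairpins are cut by Drosha and then Dicer into a duplex, of which 1 strand is loaded into an Argonaute protein as the guide while the other is mostly degraded. For miR-21 the 5p strand is the usual guide. It is known as one of the most common miRNAs of cancer and of injured tissue, its gene is switched on by stress-linked factors such as AP-1, STAT3 and NF-kB, and it represses PDCD4, which restrains growth. Hydrogen peroxide has been reported to induce it in several cell types.

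The hairpin gene, MIR21, lies on the plus strand of chromosome 17 from 57918627 to 57918698 (GRCh37, the assembly called hg19), inside VMP1 (57784553 to 57919616), which encodes a membrane protein of autophagy. In 6 protein-coding VMP1 transcripts of the annotation the hairpin overlaps an untranslated part of an exon. The sequences below are those of hsa-miR-21-5p, of hsa-miR-590-5p, the only other of 2370 mature miRNAs in the RefSeq table (GRCh38.p14) with the same seed, and of 4 of the 5 miRNAs whose levels over the 11 libraries were most like those of hsa-miR-21-5p, the other being hsa-miR-660-5p. Capitals mark the seed, bases 2 to 8, with which a miRNA pairs to its targets.
hsa-miR-21-5p: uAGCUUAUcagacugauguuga
hsa-miR-590-5p: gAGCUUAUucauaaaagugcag
hsa-miR-374b-3p: cUUAGCAGguuguauuaucauu
hsa-miR-16-5p: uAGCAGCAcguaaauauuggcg
hsa-miR-651-5p: uUUAGGAUaagcuugacuuuug
hsa-miR-627-5p: gUGAGUCUcuaagaaaagagga

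hsa-miR-21-5p was lower with H2O2 in co-treatment, which was no longer seen when the trend of each library on GC content was removed. It was higher with H2O2 in pre-treatment. In co-treatment its counts were 79975, 95329 and 86579 for the controls, against 71352, 45119 and 57562 for H2O2. As CPM (counts scaled to the library total, here with TMM factors over all 11 libraries), the controls held 13359, 11905 and 12582 and the H2O2 libraries 7747, 7638 and 7468 CPM. Every H2O2 library lay below every control, as 22.2% of the 790 miRNAs tested in co-treatment also did, and 41.6% had no overlap in either direction. The mean level was 12615 ± 727 CPM (SD, n = 3) for controls and 7618 ± 140 CPM (SD, n = 3) for H2O2. The log2 fold change (log2FC) of the co-treatment fit was −0.67 (SE 0.21), a 1.60-fold lower level, and 24.7% of the miRNAs tested had a lower log2FC. This size lies close to the minimum of 0.6 used for calls, and with library-size scaling it was −0.59.

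In pre-treatment, counts of hsa-miR-21-5p were 39504 and 46426 for the controls, against 154680, 131165 and 135144 for H2O2. These are 5144 and 6657 CPM for the controls against 18216, 18442 and 19533 CPM for H2O2. All 3 H2O2 libraries lay above both controls, as 23.3% of the 868 miRNAs tested in pre-treatment did, while 46% had no overlap in either direction. The mean level was 5901 ± 1069.7 CPM (SD, n = 2) for controls and 18731 ± 704 CPM (SD, n = 3) for H2O2. Its log2FC there was 1.53 (SE 0.26), a 2.90-fold higher level, and 96.0% of the miRNAs tested had a lower log2FC. With 1 library left out in turn, log2FC stayed between 1.39, without control 1, and 1.73, without control 2. In these bulk libraries, a change in the number of cells that hold miR-21 and a change in its amount per cell cannot be told apart.

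**Figure D1:**
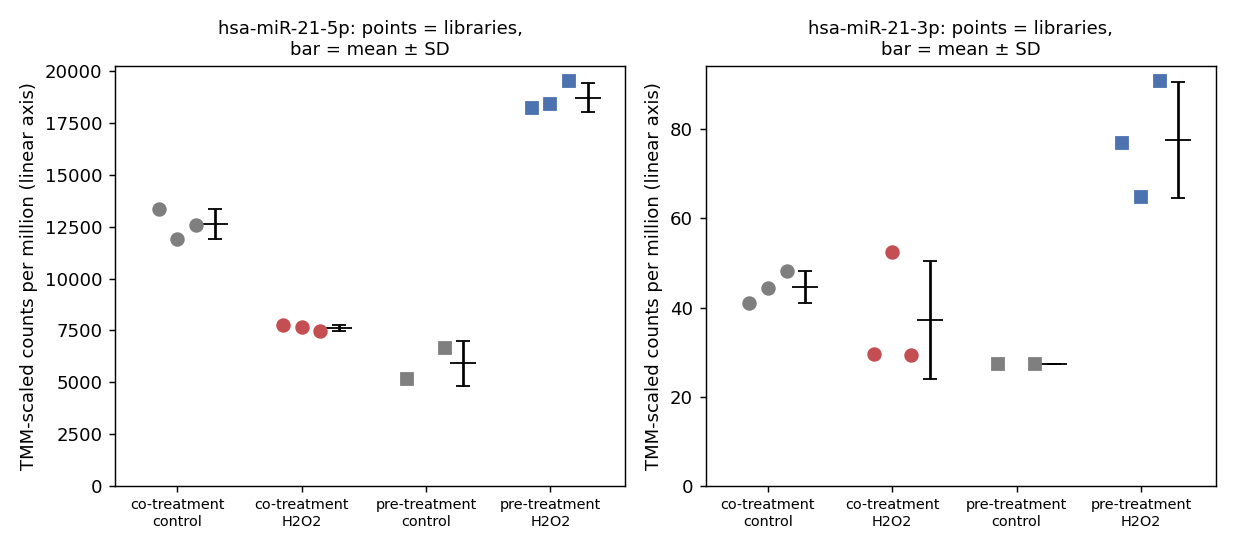
TMM-scaled CPM (linear axes) of hsa-miR-21-5p (left) and hsa-miR-21-3p (right) in the 11 libraries, each a point, with the mean and SD of each group beside them (n = 3, and n = 2 for pre-treatment controls). The 5p arm separates the 4 groups without overlap. For the 3p arm, H2O2 replicate 2 of co-treatment, at 52.5 CPM, lies above all 3 co-treatment controls. Among miRNAs with a GC value, the co-treatment log2FC of 5p went from −0.44 to 0.09 when the GC trend of each library was removed.

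hsa-miR-21-5p was among the abundant miRNAs of these cells. It took 1.12% to 1.38% of all counts in co-treatment controls and 0.775% to 0.844% in co-treatment H2O2 libraries. In pre-treatment it took 0.570% and 0.637% in the controls and 1.79% to 1.84% with H2O2. Ranked by counts it stood between 18th and 21st in co-treatment controls and between 23rd and 24th with H2O2, against 29th and 27th in pre-treatment controls and 12th to 14th with H2O2.

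hsa-miR-21-3p, the strand that is mostly discarded, was about 2 orders of magnitude scarcer and followed 5p in pre-treatment, while in co-treatment its groups overlapped. In co-treatment its counts were 246, 356 and 332 for the controls, against 273, 310 and 226 for H2O2. In CPM these were 41.1, 44.5 and 48.2 in the controls and 29.6, 52.5 and 29.3 with H2O2. H2O2 replicate 2 was the highest of the 6 libraries and the other H2O2 libraries were the lowest, so the groups overlapped. The mean level was 44.6 ± 3.58 CPM (SD, n = 3) for controls and 37.1 ± 13.3 CPM (SD, n = 3) for H2O2. The log2FC, −0.22 (SE 0.29), went from −0.43 without H2O2 replicate 2 to −0.06 without H2O2 replicate 3.

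In pre-treatment, counts of hsa-miR-21-3p were 210 and 191 for the controls, against 654, 461 and 629 for H2O2, or 27.3 and 27.4 CPM against 77.0, 64.8 and 90.9 CPM. Every H2O2 library lay above both controls, as 23.3% of the 868 miRNAs tested in pre-treatment did, while 46% had no overlap in either direction. The mean level was 27.4 ± 0.0292 CPM (SD, n = 2) for controls and 77.6 ± 13.1 CPM (SD, n = 3) for H2O2. Their log2FC was 1.37 (SE 0.31), or 2.59-fold. The pre-treatment log2FC of the 2 arms differed by less than their standard errors, and both belonged to the upper part of the 868 miRNAs tested, of which 94.4% had a lower log2FC than 3p.

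The order of the 4 groups was the same for the mean CPM of both arms, with pre-treatment controls lowest, then co-treatment H2O2, co-treatment controls and pre-treatment H2O2. For 5p no neighbours in this order overlapped, with ranges of 5144 to 6657, 7468 to 7747, 11905 to 13359 and 18216 to 19533 CPM. The share of all miRNAs whose 4 groups separate in this way was not counted. For 3p, co-treatment H2O2 (29.3 to 52.5 CPM) and co-treatment controls (41.1 to 48.2 CPM) overlapped, and the other neighbours did not. By these CPM, the controls of both experiments, which share the ATRA treatment, thus differed too. On the log2 scale their difference was smaller in the fit below, which takes its TMM factors from 764 miRNAs. For 3p it was about the size of its SE there. In 1 quasi-likelihood fit of all 11 libraries and 764 miRNAs, log2FC of pre-treatment controls over co-treatment controls was −0.72 (SE 0.19) for 5p and −0.31 (SE 0.31) for 3p, and that of pre-treatment over co-treatment H2O2 libraries was 1.22 (SE 0.17) and 0.99 (SE 0.27). The median over the 764 miRNAs was 0.20 between the controls and −0.15 between the H2O2 libraries. Experiment and any batch between the experiments cannot be told apart here.

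The responses of both experiments went with the base composition of the miRNAs. hsa-miR-21-5p has a GC content of 36.4%. In co-treatment, the other 67 tested miRNAs within 2 percentage points of it had a median log2FC of −0.76, with 56 negative and 11 positive, and 59.7% of them lay below hsa-miR-21-5p. In pre-treatment the 67 such miRNAs had a median of 0.37, with 22 negative and 45 positive, and 91.0% lay below hsa-miR-21-5p. Each library's trend on GC content was then removed in a quasi-likelihood fit of 363 miRNAs in co-treatment. These had a mean of at least 10 CPM and a GC value. hsa-miR-21-5p went from a log2FC of −0.44 to 0.09 there. The latter is below the SE of 0.21 of the reported fit, so its lower level in co-treatment was no longer seen. The same step in pre-treatment, over 348 miRNAs, took hsa-miR-21-5p from 1.30 to 0.99. hsa-miR-21-3p was not in these fits. The part of base composition in the result of either arm was not tested beyond these values.

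**Figure D2:**
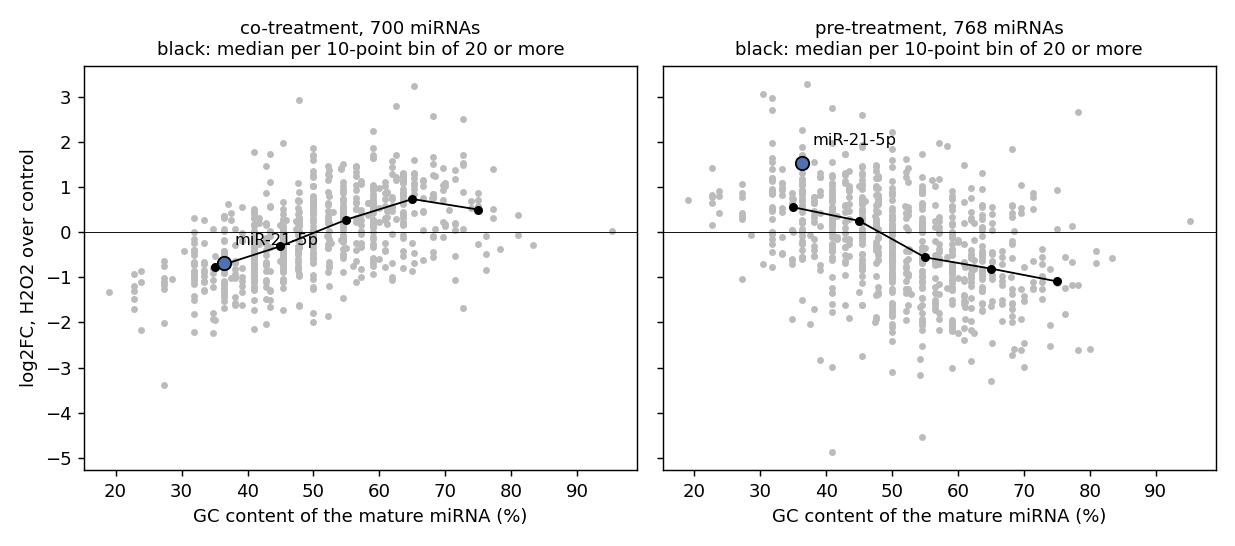
log2FC of H2O2 over control (vertical axes) against the GC content of the mature miRNA in percent (horizontal axes), for 700 miRNAs in co-treatment (left) and 768 in pre-treatment (right), with the median of each 10-point bin of 20 or more miRNAs in black. In co-treatment hsa-miR-21-5p, at −0.67, sits near the median of −0.76 of miRNAs like it in GC content. In pre-treatment it sits above most of them at 1.53. The trend's removal, in a fit of 363 miRNAs, took its co-treatment log2FC from −0.44 to 0.09.

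The ratio of the 2 arms needs no scaling for library size, because both come from the same library. A trend on GC content need not cancel in this ratio. Its part in the ratio was not tested, as hsa-miR-21-3p was not in the fits with that trend removed. In co-treatment controls, 5p had 325, 268 and 261 counts for each count of 3p, and in co-treatment H2O2 libraries 261, 146 and 255. The groups overlapped, and H2O2 replicate 2 stood apart from the other 5 libraries. In that library 3p made up 0.682% of the counts of both arms (95% exact binomial interval 0.609% to 0.762%), against 0.307% to 0.391% in the other 5, whose intervals reached at most 0.445%. It was also the smallest of the 11 libraries. The mean log2 ratio was 7.74 ± 0.48 (SD, n = 3) with H2O2 and 8.15 ± 0.17 (SD, n = 3) in controls, a difference of −0.41 that was −0.13 without H2O2 replicate 2.

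In pre-treatment the ratio was 188 and 243 for the controls against 237, 285 and 215 for H2O2, and the groups overlapped again. The share of 3p was 0.529% (0.460% to 0.605%) and 0.410% (0.354% to 0.472%) in the controls and 0.421%, 0.350% and 0.463% with H2O2. The mean log2 ratio was 7.93 ± 0.21 (SD, n = 3) with H2O2 and 7.74 ± 0.26 (SD, n = 2) in controls. The difference of 0.19 lay within the spread of the libraries and was 0.0033 without control 1. Both arms of miR-21 therefore had higher counts with H2O2 in pre-treatment with a ratio that moved by less than the spread between replicates. An exact permutation test could not have gone below a two-sided p of 0.10 with 3 against 3 libraries or 0.20 with 3 against 2.

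**Figure D3:**
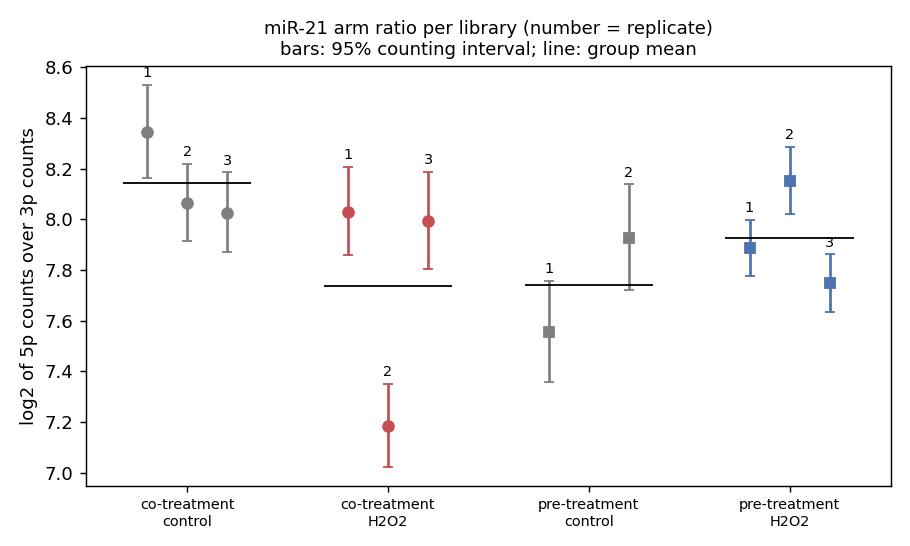
log2 of the 5p counts over the 3p counts of miR-21 in each of the 11 libraries (numbers are replicates), with 95% exact binomial intervals for counting error and a line at each group mean. All libraries but 1 lie between 7.56 and 8.34, and H2O2 replicate 2 of co-treatment lies at 7.19.

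The arm ratio of miR-21 was set beside that of other hairpins. Of 830 hairpin names with both arms in the tables, 134 had 10 or more counts of each arm in all 11 libraries, and 82 of these had more 5p than 3p. The mean log2 ratio of miR-21 was higher than that of 91.8% of the 134. In co-treatment its change of −0.41 was smaller in size than the median of 0.55, with 35.1% of the hairpins moving less. In pre-treatment its change of 0.19 was smaller than the median size of 0.63, and 20.9% moved less. In co-treatment the largest changes of the log2 ratio were 2.24 for miR-491, 1.92 for miR-193b and 1.85 for miR-744, and −3.11 for miR-106b, −2.42 for miR-139 and −1.94 for miR-18a. In pre-treatment the largest changes were 2.69 for miR-455, 2.41 for miR-629 and 2.35 for miR-664a, and −2.38 for miR-130a, −2.25 for miR-369 and −1.88 for miR-1224. H2O2 and control libraries overlapped in this ratio for miR-21, and did not overlap for 35.1% of the 134 hairpins in co-treatment and 50% in pre-treatment.

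hsa-miR-590-5p shares the seed of hsa-miR-21-5p and is predicted to share many of its targets, while 8 of 22 bases are the same when both are aligned at the first base. It comes from MIR590 on chromosome 7 from 73605528 to 73605624 (GRCh37), inside EIF4H, a gene of translation initiation. In co-treatment it had 195, 95.4 and 236 CPM in the controls and 76.2, 75.7 and 45.9 CPM with H2O2, without overlap. It fell by 1.34 on the log2 scale (SE 0.32, FDR = 0.00124 by the exact test in edgeR, adjusted by Benjamini-Hochberg). Of all miRNAs tested in co-treatment 26.2% were called, 15.6% lower and 10.6% higher with H2O2. All H2O2 libraries lay below the controls for 22.2% and above them for 19.5%. In pre-treatment it had 42.2 and 64.0 CPM in the controls and 101, 86.3 and 131 CPM with H2O2, which also did not overlap, but the log2FC of 0.86 (SE 0.34) was not called (FDR = 0.189 by the same edgeR test). In pre-treatment 15.3% of the miRNAs tested were called, 5.41% higher and 9.91% lower with H2O2. All H2O2 libraries lay above the controls for 23.3% and below them for 22.7%.

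The other arm, hsa-miR-590-3p, likewise fell in co-treatment (log2FC −1.33, SE 0.27, FDR = 3.01e-04, edgeR exact test), though not after the GC trend was removed, and was not called in pre-treatment (0.70, SE 0.32, FDR = 0.236). Without pre-treatment control 2, log2FC in pre-treatment was 1.19 for 5p and 1.15 for 3p. It was 0.62 and 0.39 without control 1, and each of these fits held a lone control. The difference in response between the experiments, tested in the quasi-likelihood fit of all 11 libraries, was 1.96 (SE 0.50, FDR = 0.0108) for hsa-miR-590-5p and 1.80 (SE 0.40, FDR = 0.00621) for hsa-miR-590-3p, against 32.1% of 764 miRNAs past that FDR. After the GC trend was removed, neither arm was called in co-treatment, with log2FC of −0.56 (quasi-likelihood FDR 0.214) for 5p and 0.02 (0.968) for 3p. In pre-treatment they had log2FC of 0.34 and −0.14. At its highest, in co-treatment control 3, hsa-miR-590-5p had 236 CPM, so hsa-miR-21-5p held most of the reads with this seed in every library.

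**Figure D4:**
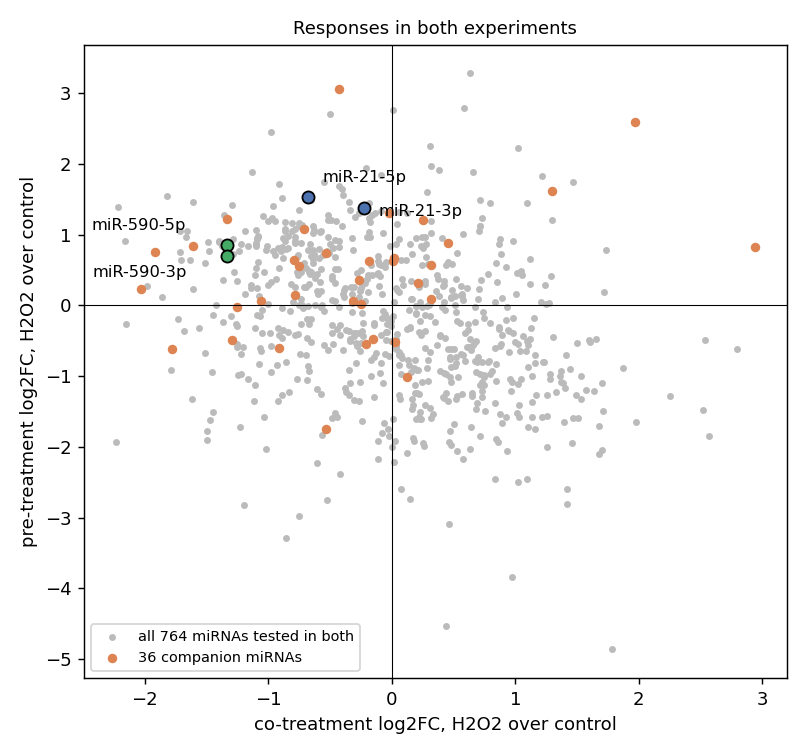
log2FC of H2O2 over control in co-treatment (horizontal axis) and pre-treatment (vertical axis) for the 764 miRNAs tested in both (grey), with 36 companion miRNAs from the lists in orange, hsa-miR-590-5p among them, and both arms of miR-21 (blue) and miR-590 (green) named. The 4 named miRNAs lie in the upper left, with 234 of the 764 (30.6%); for hsa-miR-21-5p and hsa-miR-590-3p the horizontal position moved to 0.09 and 0.02 after the GC trend was removed.

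The 17q neighbours of MIR21 were the next companions. MIR301A and MIR454 lie in SKA2, a gene of the mitotic spindle, 690045 and 703394 bases away. Of 9 listed neighbours 6 were tested, of which 4 fell and none rose in co-treatment, and 1 rose and none fell in pre-treatment. Over all miRNAs tested, 15.6% were called lower and 10.6% higher in co-treatment, and 9.91% and 5.41% in pre-treatment. hsa-miR-301a-3p fell in co-treatment by 1.33 on the log2 scale (SE 0.28, FDR = 3.95e-04, edgeR exact test) and rose in pre-treatment, with log2FC 1.22 (SE 0.27, FDR = 0.0135), a call that the quasi-likelihood test did not make (FDR 0.056). hsa-miR-301a-5p and hsa-miR-454-3p fell in co-treatment, with log2FC of −1.25 and −0.79. So did hsa-miR-142-5p, a white blood cell miRNA, with −1.30 (25 to 46 counts in controls, 7 to 21 with H2O2). In pre-treatment hsa-miR-301a-5p, hsa-miR-454-3p and hsa-miR-142-5p were at −0.03, 0.64 and −0.49 and were not called. hsa-miR-454-5p and hsa-miR-142-3p were not called in either experiment, with log2FC of −0.21 and −0.91 in co-treatment and −0.54 and −0.60 in pre-treatment. hsa-miR-4729, hsa-miR-4736 and hsa-miR-4737 were too low to be tested.

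Among 15 miRNAs known from oxidative stress, hypoxia, p53 or NRF2 work, 2 of 11 tested rose and 1 fell in co-treatment. In pre-treatment 3 of 12 rose and 1 fell. Over all miRNAs tested, 10.6% were called higher and 15.6% lower in co-treatment, and 5.41% and 9.91% in pre-treatment. The list's median log2FC was −0.27 and 0.50, against −0.04 and −0.19 over all miRNAs tested. The p53-induced hsa-miR-34c-5p rose in both (1.30 and 1.62), as did hsa-miR-34b-3p (1.97 and 2.59), although the latter had at most 32 counts in any library. The pre-treatment calls of both were lost with the quasi-likelihood test (FDR 0.052 and 0.15). hsa-miR-210-3p, the main miRNA of hypoxia, fell in pre-treatment by 1.75 on the log2 scale (SE 0.41, FDR = 0.00492, edgeR exact test), which was not called by the quasi-likelihood test (FDR 0.059). Its controls held 690 and 1711 CPM. hsa-miR-335-5p rose there with 3.06 (SE 0.42, FDR = 9.58e-07), and hsa-miR-27b-3p fell in co-treatment with −0.78.

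Of 10 miRNAs whose genes answer to AP-1, STAT3 or NF-kB, 8 were tested in co-treatment, of which 1 rose and 1 fell, and none of 9 was called in pre-treatment by the edgeR exact test or the quasi-likelihood test. There DESeq2 called 1, and 1, hsa-miR-181b-5p, had an unadjusted p below 0.05 in the exact test (log2FC 1.21, SE 0.36). The riser, hsa-miR-221-3p, had 3 to 7 counts in controls and 26 to 54 with H2O2 (log2FC 2.94, SE 0.51, FDR = 7.31e-06, edgeR exact test). hsa-miR-9-5p fell there with −1.06, though not by the quasi-likelihood test (FDR 0.065). hsa-miR-146a-5p, a marker of NF-kB activity, had log2FC of 0.31 (SE 0.31) and 0.57 (SE 0.47) and was not called, and hsa-miR-155-5p had at most 7 counts in any library. The list's median log2FC was −0.07 in co-treatment and 0.57 in pre-treatment, against −0.04 and −0.19 over all miRNAs tested. The exact test called 10.6% of all miRNAs tested higher and 15.6% lower in co-treatment. In pre-treatment it called 15.3% in either direction.

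Over the 45 companions of all lists, hsa-miR-590-5p included, 15 of 36 tested were called in co-treatment, 12 of them lower. In pre-treatment 7 of 38 were called, 6 of them higher. Called of all miRNAs tested were 26.2% in co-treatment (15.6% lower) and 15.3% in pre-treatment (5.41% higher). The lists were written with earlier results of these data known, so these counts are a description and are not read as an excess. Among companions with a GC value, quasi-likelihood calls went from 7 to 4 of 27 for co-treatment when the GC trend was removed. For pre-treatment they went from 2 to 1 of 29. Calls over all miRNAs in those fits went from 126 to 24 of 363 and from 52 to 41 of 348. In pre-treatment the quasi-likelihood test called 1 of 38 companions, while it called 17 of all 868 miRNAs. With each H2O2 library left out in turn the exact test called 1 companion, while it called 9 to 16 miRNAs in all.

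The miRNAs most like hsa-miR-21-5p were sought among 403 with a mean of at least 10 CPM, by Pearson correlation of log2 CPM over the 11 libraries, which share their groups and experiments, so the values describe a common pattern only. They were hsa-miR-374b-3p (0.95), hsa-miR-16-5p (0.94), hsa-miR-660-5p (0.94), hsa-miR-651-5p (0.93) and hsa-miR-627-5p (0.93). The seeds of the 4 printed above differ from each other and from that of hsa-miR-21-5p, and their GC content ran from 31.8% to 45.5%. In co-treatment and pre-treatment, log2FC was −0.86 and 1.17 for hsa-miR-374b-3p, −0.58 and 1.06 for hsa-miR-16-5p, −0.66 and 1.49 for hsa-miR-660-5p and −0.73 and 0.88 for hsa-miR-627-5p. hsa-miR-651-5p had 1.20 in pre-treatment and also a negative value in co-treatment. hsa-miR-483-5p (−0.96), hsa-miR-125a-3p (−0.93) and hsa-miR-129-2-3p (−0.88) were least like it.

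The 2 arms of miR-21 had a Pearson correlation of 0.88 (Spearman 0.87) over the 11 libraries, and 3p stood 13th of 402 in likeness to 5p. Most like hsa-miR-21-3p were hsa-miR-181c-3p (0.95), hsa-miR-2682-3p (0.93), hsa-miR-3065-3p (0.91), hsa-miR-192-5p (0.91) and hsa-miR-660-5p (0.91), the last of which was on both lists. These had log2FC from −0.66 to −0.14 in co-treatment and from 0.96 to 1.49 in pre-treatment. hsa-miR-129-2-3p (−0.94), hsa-miR-483-5p (−0.88) and hsa-miR-323a-3p (−0.87) were least like hsa-miR-21-3p.

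**Figure D5:**
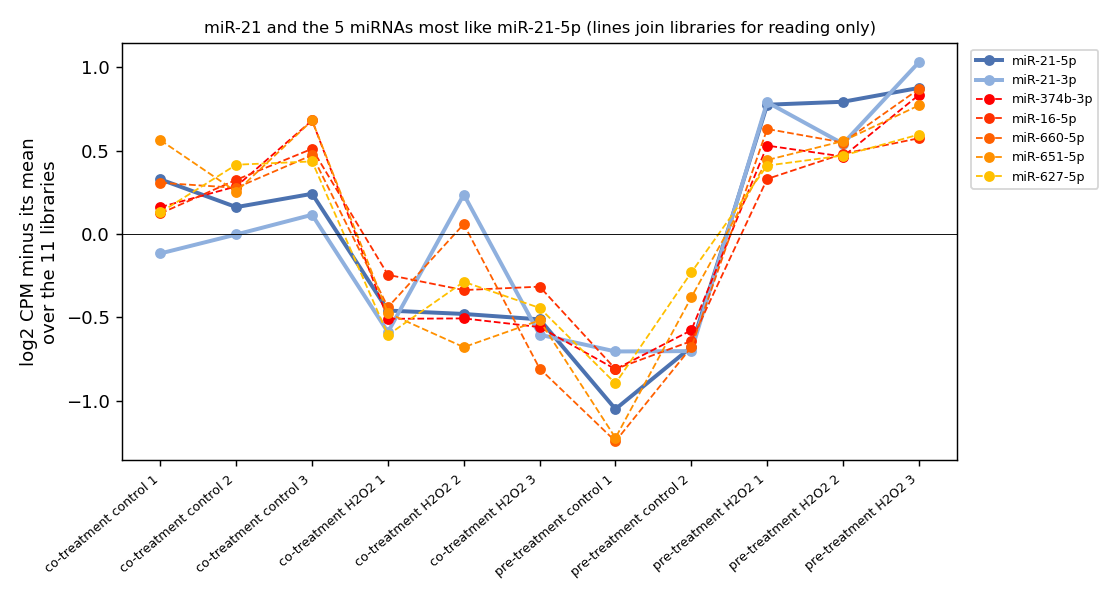
log2 CPM of both arms of miR-21 (blue) and of the 5 miRNAs most like hsa-miR-21-5p (red to yellow), each minus its mean over the 11 libraries, with libraries on the horizontal axis and lines that join them for reading only. All 7 are low in both pre-treatment controls and high in the pre-treatment H2O2 libraries, and in H2O2 replicate 2 of co-treatment hsa-miR-21-3p and hsa-miR-660-5p lie above the other 5.

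Markers of the labelled cells and of others were read beside these levels. Of 7 neural miRNAs 6 were tested, with hsa-miR-137 the most abundant, while hsa-miR-124-3p, the classic neuronal miRNA, had at most 7 counts in any library. The summed level of the neural list was 32564 to 37057 CPM in co-treatment controls and 15329 to 18833 CPM with H2O2. It was 11384 to 21661 CPM in pre-treatment controls and 29903 to 38646 CPM with H2O2. This sum, mostly hsa-miR-137, was thus lower and higher in the same groups as hsa-miR-21-5p. The list's median log2FC was −0.83 in co-treatment and 0.53 in pre-treatment, where hsa-miR-218-5p was at −0.39 and hsa-miR-9-5p at 0.06. In co-treatment 3 of the 6 fell, hsa-miR-137 among them (log2FC −1.10, SE 0.20). In pre-treatment none was called by the edgeR exact test or the quasi-likelihood test. There DESeq2 called 1, and 2 had an unadjusted p below 0.05 in the exact test. Over all miRNAs tested, 26.2% were called in co-treatment (10.6% higher, 15.6% lower) and 15.3% in pre-treatment (5.41% higher, 9.91% lower). miR-21 is also abundant in mesenchymal, epithelial and blood cells. The mesenchymal list, mostly hsa-miR-143-3p, summed to 15959 to 17299 CPM in co-treatment controls and 9916 to 13405 CPM with H2O2, and to 9507 to 18704 and 14357 to 16074 CPM in pre-treatment. Of its members 1 of 6 tested rose and 1 fell in co-treatment, and 1 of 7 fell in pre-treatment. Epithelial and white blood cell lists were low, apart from pre-treatment control 1, where they summed to 169 and 110 CPM, and these were 40.9 and 13.5 CPM in control 2, 45.4 to 48.6 and 17.9 to 22.7 CPM in pre-treatment H2O2 libraries, 47.5 to 53.2 and 18.5 to 22.8 CPM in co-treatment controls and 39.2 to 44.9 and 9.82 to 16.9 CPM in co-treatment H2O2 libraries. In that control, hsa-miR-21-5p was at its lowest. hsa-miR-205-5p of the epithelial list and hsa-miR-223-3p of the white blood cell list were called lower in pre-treatment by the exact test but not by the quasi-likelihood test (FDR 0.064 and 0.082). In the controls hsa-miR-205-5p had 1007 and 32 counts, and hsa-miR-223-3p 540 and 4 counts, with control 2 of the latter below every H2O2 library in CPM. hsa-miR-142-5p of the white blood cell list fell in co-treatment. The red blood cell list summed to at most 15.5 CPM in any library, with 1 of 3 tested higher in co-treatment and 2 of 3 higher in pre-treatment. No epithelial miRNA of 5 was called in co-treatment by edgeR or DESeq2, and 0 had an unadjusted p below 0.05. The part of other cells in the levels of miR-21 was not tested.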

How the data were processed

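Small RNA libraries (QIAseq miRNA kit, Illumina) were trimmed by the authors with Cutadapt 2.10, aligned to hg19 with Bowtie2 2.4.1 and counted per mature miRNA with htseq-count 0.7.2. The deposited counts are not normalized, and whether molecular identifiers were used is not given in the sources used here, so intervals cover counting error only. The authors' tables of fold changes, p-values and FDR were not used. Groups were taken from the sample titles.

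The exact test, after the paper's methods, was run in edgeR 4.0.16 (R 4.3.3) on H2O2 against control separately for co-treatment and pre-treatment, with TMM scaling chosen here, calling FDR under 0.05 and absolute log2FC above 0.6. Tested were miRNAs above a CPM equal to 5 counts of the smallest library, which is 0.936 for co-treatment (needed in 3 libraries) and 0.721 for pre-treatment (needed in 2), the numbers of libraries being chosen here. Standard errors and the difference between experiments came from edgeR's quasi-likelihood fit. Levels use TMM over all 11 libraries, log2FC the scaling of its own experiment. The fit of all 11 libraries instead takes TMM over those libraries from its 764 miRNAs. Arm ratios use raw counts. GC content came from RefSeq mature sequences, and the trend is a lowess curve (span 0.5) per library, used as an offset. Alternatives were the quasi-likelihood test, DESeq2 1.42.0, other scalings and filters, a replicate block, a joint fit and each library left out. The fits were tested on simulated data.

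The miRNAs of the reported companion lists that were called in either experiment are named, as are all seed-family members and neighbours, the 5 miRNAs most like each arm and the 3 least like it (prior count 1), and the 3 hairpins with the largest change of ratio in each direction. One companion list is not reported here on its own, though its miRNAs count among the 45 companions. The members and all lists were chosen with earlier results of these data known. Replicates are biological by the study's description, with no further detail.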

Additional observations from a re-analysis of the deposited data

Results flagged for a closer look

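hsa-miR-21-5p was singled out because its H2O2 libraries all lay below the controls in co-treatment and all above them in pre-treatment. In the joint fit of all 11 libraries, the log2FC of pre-treatment minus that of co-treatment was 1.94 (SE 0.25). With the GC trend removed in each experiment the log2FC values were 0.99 and 0.087. This difference was not tested, since the miRNA was chosen for it.

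Of 19 miRNAs, the companions called in either experiment and both miR-590 arms, 11 differed in response between the experiments past an FDR of 0.05. That was in the quasi-likelihood fit of all 11 libraries, where 32.1% of all 764 miRNAs did so too. The companions were picked by their calls in these same libraries, which favours such a difference. The 11 of 19 can therefore not be set against that share. Higher in pre-treatment than in co-treatment were hsa-miR-335-5p (difference in log2FC 3.15), hsa-miR-19a-3p (2.44), hsa-miR-301a-3p (2.25), hsa-miR-19b-3p (2.19), hsa-miR-106b-5p (2.06), hsa-miR-590-5p (1.96), hsa-miR-590-3p (1.80), hsa-miR-454-3p (1.16) and hsa-miR-26b-5p (1.49). Lower in pre-treatment were hsa-miR-221-3p (−2.46) and hsa-miR-210-3p (−1.43). Experiment and any batch between the experiments cannot be told apart in these differences.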

How the results depend on the processing

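For hsa-miR-21-5p in co-treatment, log2FC was −0.59 with library-size scaling, −0.49 with the filter applied in every library, −0.53 in the joint fit of both experiments and −0.44 in the quasi-likelihood fit of miRNAs with a GC value, against −0.67 as reported. It was 0.087 with the GC trend removed and 0.091 with the replicate block and the GC trend removed, both below the SE of 0.21 of the reported fit. With each library left out in turn it ran from −0.66 to −0.57. In pre-treatment it was 1.37 with the filter in every library, 1.30 for miRNAs with a GC value, 0.99 with the GC trend removed and 1.03 with the replicate block and the GC trend removed, and 1.39 to 1.73 with a library left out. hsa-miR-21-3p kept the sign of its log2FC under all 8 other settings run for it, which do not include the fits with the GC trend removed. Its values were −0.26 to −0.05 in co-treatment, smaller in size than the SE of 0.29 of the reported fit, and 1.19 to 1.53 in pre-treatment. With a library left out they were −0.43 to −0.06 and 1.29 to 1.54. The arm ratio changed by −0.41 and 0.19 with 0.5 counts added, by −0.41 and 0.28 with same-numbered libraries as a replicate block, and by −0.56 to −0.13 and 0.0033 to 0.37 with a library left out. With hairpins of at least 1 or 50 counts, 30.3% and 36.3% of them moved less than miR-21 in co-treatment and 17.3% and 17.6% in pre-treatment.

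Calls over all miRNAs in co-treatment were 207 as reported, 111 with the replicate block, 126 for miRNAs with a GC value, 24 with the GC trend removed, 0 with the replicate block and the GC trend removed and 90 in the joint fit, and 98 (without H2O2 replicate 3) to 279 (without control 2) with a library left out. The share raised was 40.6% as reported and 50.5% with library-size scaling, and the GC trend's removal took it from 61.9% to 45.8%. In pre-treatment calls were 133 as reported, 17 with the quasi-likelihood test, 61 without a filter, 15 with the replicate block, 52 for miRNAs with a GC value, 41 with the GC trend removed and 0 with the replicate block and the GC trend removed, and 9 (without H2O2 replicate 2) to 449 (without control 2), where the lone control is assumed to vary like the H2O2 libraries. Called companions in co-treatment were 7 for miRNAs with a GC value, 4 with the GC trend removed and 0 with the replicate block and the GC trend removed, and 10 to 16 with a library left out. In pre-treatment they were 1 with the quasi-likelihood test, 1 with the replicate block, 2 for miRNAs with a GC value, 1 with the GC trend removed and 0 with the replicate block and the GC trend removed, and 1 to 25 with a library left out. Same-numbered libraries shared only a number, with correlations of their deviations of 0.04, −0.15 and −0.14 in co-treatment and 0.20 and −0.06 in pre-treatment. With Spearman correlation, 2 of the 5 miRNAs most like hsa-miR-21-5p stayed. The cause of these changes was not tested. hsa-miR-21-3p had 191 to 654 counts a library, which limits the precision of the arm ratio.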
